A study of Mus musculus with 6 samples.

Results

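The genes described here lie in 2 stretches of mouse chromosome 7 and were measured by bulk RNA-seq in thymic iNKT1 cells. A gene belonged if the deposited table lists it as protein-coding on chromosome 7, with its start between 60 and 80 Mb (the first window) or at 140 Mb and above (the second window), and with a mean of at least 1 CPM (read count scaled to the total of its library) over the 6 libraries. Irf7 and genes whose names begin with Ifitm, B4galnt, Slc, Rpl, Rps, St8sia, Nduf, Cox or Arhg were left out. This gave 48 genes in the first window and 61 in the second, 109 of the 17985 genes in the table. The members were thus selected on position and on mean CPM, and both windows were picked because earlier results of this same comparison showed clustered differences there. All differences between the groups below, and their p-values, are therefore descriptions of these 6 libraries and lend no separate support to the choice of the windows.

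Invariant NKT cells are T cells with a nearly fixed T cell receptor that recognises lipids on CD1d, and the iNKT1 subset is the one that depends on the transcription factor T-bet, the product of Tbx21. Control libraries (Ctrl, 3 replicates) came from mice on a C57BL/6 background of genotype Tbx21CreTg;Rosa26-LSL-YFP+/+. Conditional knockout libraries (cKO, 3 replicates) came from mice that also carried Tgfbr2F/F, floxed alleles of the gene for the TGF-beta type II receptor. Both groups carried the Tbx21-driven Cre and the YFP reporter, none was treated, and no age is given in the labels. Cre driven by Tbx21 acts only in cells that have switched on that gene, so the receptor is removed late and only in such cells. Separate animals are not named for each library, so the p-values measure the spread between libraries.

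Neighbouring genes on a chromosome can share enhancers, chromatin domains or a common stretch of open DNA, and their transcripts can then vary together. The second window contains one of the best known imprinted regions of the mouse genome, the Igf2 to Osbpl5 region, where several genes are transcribed mainly from the maternal or the paternal copy. The TGF-beta type II receptor works with the type I receptor to phosphorylate SMAD2 and SMAD3, which enter the nucleus with SMAD4 and change transcription. In T cells that pathway is known for holding back effector programmes and for inducing tissue residency genes.

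Library totals ran from 28832779 to 68092478 reads, which makes 1 read equal to 0.0347 CPM in the smallest library and to 0.0147 CPM in the largest. The replicate 3 libraries stood apart: 4406 genes were at 0 in the Ctrl library and 4590 in the cKO library, against 0 to 5 in the other 4 libraries. Among the members, 5 of the first window and 4 of the second were at 0 in at least 1 replicate 3 library. Same-numbered libraries of the 2 groups deviated together from their group means (correlations across genes of 0.855, 0.687 and 0.924), so members whose call changes when the replicate number enters the fit as a block are given both ways. The targeted Tgfbr2 was measured at 461, 461 and 425 CPM in the Ctrl libraries and 290, 258 and 274 CPM in the cKO libraries, without overlap (log2 difference −0.71, adjusted p = 0.0207 in limma). Tgfbr2 passed under 8 of 10 other settings and in 1 of 6 fits that left out 1 library (adjusted p of 0.0348 to 0.156 in limma). Its adjusted p in the authors' deposited table is 0.373 (edgeR). The Tgfbr2 level counts reads over the whole gene, inside and outside the floxed part. All 9 identity markers of iNKT1 cells were present, among them Tbx21, Il2rb, Nkg7 and Trac, and their summed level ranged from 9150 to 11100 CPM in Ctrl and from 9250 to 13000 CPM in cKO. The sum hides 1 uneven marker: Klrb1c stood at 566, 180 and 703 CPM in Ctrl and at 640, 870 and 1020 CPM in cKO. Ctrl replicate 2 was thus far below the other libraries for Klrb1c, which did not pass without or with the block. Of the 9, Il2rb rose with the block (adjusted p = 1 in limma without it and 0.0166 with it).

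Of the markers of other cells, 5 of 7 B cell genes were tested, with sums of 5.63 to 16.0 CPM in Ctrl and 5.49 to 17.0 CPM in cKO. The 6 of 8 tested myeloid genes summed to 110 to 115 CPM in Ctrl and 91.0 to 132 CPM in cKO, most of it Cst3. The 5 of 8 tested double-positive thymocyte genes summed to 130 to 138 CPM in Ctrl and 166 to 210 CPM in cKO, most of it Cd4, while Rag1 stayed at or under 2.88 CPM in each library. Cd4 itself rose with the block (adjusted p = 0.325 in limma without it and 0.0169 with it). The 5 of 8 tested epithelial and stromal genes summed to 33.8 to 41.1 CPM in Ctrl and 58.1 to 74.5 CPM in cKO, most of it Pecam1. In the replicate 3 libraries the stromal Col3a1 and Pdgfra were at 0, while Col1a1 was at 0.888 CPM in Ctrl and 0.984 in cKO. The epithelial Epcam was highest in those libraries, at 9.63 CPM in Ctrl and 9.97 in cKO. Pecam1 rose (log2 difference 1.07, adjusted p = 0.0423 in limma without the block and 0.00136 with it). The rest of that list did not pass without or with the block. Col1a1, Pdgfra, Epcam and Col3a1 differed by −0.29, −0.18, −0.03 and 0.04 on the log2 scale, so the higher sum in cKO was that of Pecam1. Of 6 erythroid genes, Alas2 alone was tested and reached at most 4.13 CPM. The part of such cells in the results below was not tested.

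In the first window, Isg20, Aen and Fanci fell, and no member rose. Isg20 kept 16.9% of its Ctrl level, Fanci 32.5% and Aen 48.6%. With the replicate block, Mfge8, Tjp1, Ntrk3 and Fam174b also fell, which made 7 members lower and none higher. The threshold throughout was an adjusted p of 0.05 in limma, on log2(CPM + 1) and adjusted over all 15691 tested genes. In bulk RNA, fewer cells of a type and less RNA per cell cannot be told apart.

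The 3 members called without the block are 6.25% of the first window, where 0.663% of all tested genes were called (0.459% lower and 0.204% higher). With the block, the 7 members are 14.6% of the window, where 2.87% of all tested genes were called (1.64% lower and 1.24% higher). The groups did not overlap for 9 members of this window, all lower in cKO, where this held for 11% of all tested genes (7.1% lower and 3.89% higher). At an unadjusted p under 0.05 there were 7 members, 7 of 48, where 6.02% of all tested genes were at that level. Because the window was chosen on this comparison, nothing further is read from these shares.

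**Figure D1:**
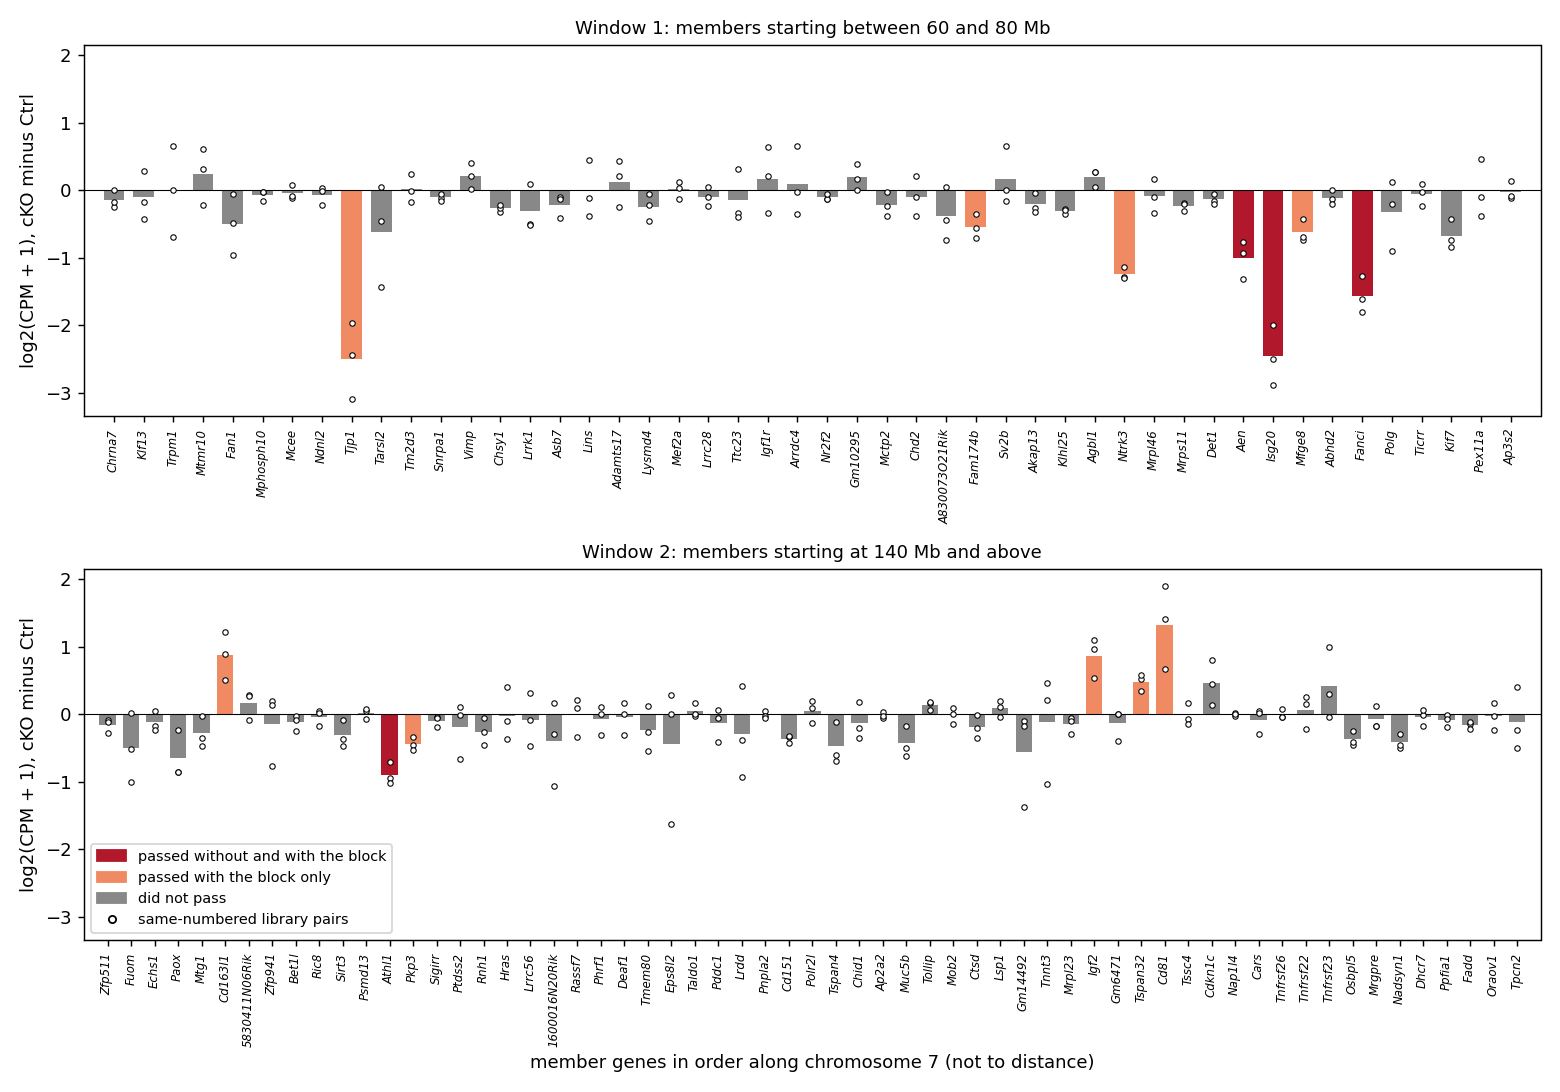
Difference between cKO and Ctrl on the log2(CPM + 1) scale (y axis) for each of the 48 members of the first window and 61 of the second, in order along the chromosome (x axis, not to distance). Bars are the differences of group means, points those of the 3 same-numbered library pairs, and colours show which members passed the threshold of 0.05 without and with the replicate block; in the first window the deepest bars are those of Tjp1 and Isg20 and all 7 coloured bars point down, while the second window has coloured bars in both directions.

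Aen and Isg20 are next-door genes on the plus strand, and both encode 3′ to 5′ exonucleases of the same fold. Aen (ENSMUSG00000030609, chromosome 7, 78895854 to 78911209, mm10) encodes a nuclease induced by p53 that takes part in DNA degradation during apoptosis. Isg20 (ENSMUSG00000039236, 78913424 to 78920362) encodes an interferon-stimulated nuclease that degrades single-stranded RNA, including viral RNA. Only 2214 bp separate the end of Aen from the start of Isg20, with no annotated protein-coding gene between them. Their promoters are shown because the pair fell together while the sequences at their starts differ. Each run is the 300 bases from 250 before to 50 after the RefSeq start (GRCm38.p6), read 5′ to 3′ on the plus strand, and capitals mark CAGAC or its complement GTCTG, the short box that SMAD3 and SMAD4 can bind.
Aen, chr7:78895677-78895976: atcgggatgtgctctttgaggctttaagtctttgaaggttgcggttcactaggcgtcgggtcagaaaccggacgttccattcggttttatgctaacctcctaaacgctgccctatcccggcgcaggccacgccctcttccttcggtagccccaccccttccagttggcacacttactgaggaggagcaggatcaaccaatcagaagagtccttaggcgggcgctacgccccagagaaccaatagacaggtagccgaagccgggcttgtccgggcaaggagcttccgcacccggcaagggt
Isg20, chr7:78913174-78913473: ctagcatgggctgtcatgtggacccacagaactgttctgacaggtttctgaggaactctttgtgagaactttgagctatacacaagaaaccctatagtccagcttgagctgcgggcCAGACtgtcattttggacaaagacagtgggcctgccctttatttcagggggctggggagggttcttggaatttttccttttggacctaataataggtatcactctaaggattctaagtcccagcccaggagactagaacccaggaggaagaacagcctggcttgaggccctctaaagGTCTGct
The Aen promoter held 20 CG pairs and no such box, and the Isg20 promoter held 1 CG pair and 2 boxes, starting at positions 117 and 294 of the run. Over 32851 promoters of the same length, not selected on expression, the median was 7 CG pairs. Of these promoters, 49.6% held the box on either strand. A match is a description of the letters and not a binding site.

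Isg20 stood at 75.9, 102 and 128 CPM in Ctrl and at 18.2, 17.1 and 16.4 CPM in cKO. The 3 cKO libraries lay close together and far below each Ctrl library. The mean went from 102 ± 25.9 to 17.2 ± 0.948 CPM (SD, n = 3 libraries each), a log2 difference of −2.46 (SE 0.188, adjusted p = 0.00444 in limma). It passed under all 10 other settings tried, and in 5 of 6 fits that left out 1 library (without Ctrl replicate 2 the adjusted p was 0.0501 in limma).

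Aen stood at 42.0, 55.0 and 44.2 CPM in Ctrl and at 24.2, 21.6 and 22.8 CPM in cKO. There was no overlap between the groups, and the 3 cKO libraries again lay close together. The log2 difference was −1.0 (SE 0.132, adjusted p = 0.0306 in limma, 0.00485 with the block). Leaving out any 1 of the 6 libraries ended this call, with adjusted p of 0.0718 to 0.161 in limma and log2 differences of −1.08 to −0.887, and so did edgeR without the block (adjusted p = 0.0776) and TMM scaling (0.066).

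Fanci (ENSMUSG00000039187, 79391929 to 79450265) encodes a Fanconi anaemia protein that, paired with FANCD2, marks DNA crosslinks for repair. It stood at 34.9, 34.4 and 30.8 CPM in Ctrl and at 13.9, 10.5 and 8.11 CPM in cKO. Each cKO library lay below the lowest Ctrl library by a wide margin. This gave a log2 difference of −1.56 (SE 0.197, adjusted p = 0.0281 in limma, 0.00083 with the block). The call held in 2 of 6 fits without 1 library, those without cKO replicate 1 (adjusted p = 0.0235) or cKO replicate 3 (0.0281), and the other 4 gave adjusted p of 0.116 to 0.171 in limma. Fanci passed under 9 of 10 other settings, and edgeR without the block did not call it (adjusted p = 0.0596). The annotated exons of Fanci overlap those of Polg, the mitochondrial DNA polymerase on the opposite strand, over 921 bp, and whether strand was used in counting is not given in the sources used here. Polg stood at 143 ± 17.0 CPM in Ctrl and 116 ± 28.5 in cKO and did not pass.

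Mfge8 (ENSMUSG00000030605, 79133769 to 79149060, minus strand) lies between Isg20 and Fanci and encodes a secreted bridge between dying cells and the integrins of phagocytes. Its Ctrl levels were 42.5, 42.8 and 46.5 CPM and its cKO levels 25.1, 26.1 and 34.2 CPM. The groups did not overlap. The log2 difference was −0.62 (SE 0.14), with an adjusted p of 0.224 in limma without the block and 0.0268 with it. Abhd2, a lipid hydrolase gene that lies between Mfge8 and Fanci, stood at 36.5 ± 7.39 CPM in Ctrl and 33.5 ± 4.37 in cKO and did not pass. From Aen to Fanci, 4 of 5 consecutive members thus passed with the block, over 554 kb, beside 2.87% of all tested genes. The ends of this stretch were set at members that passed, so the count is a description only.

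**Figure D2:**
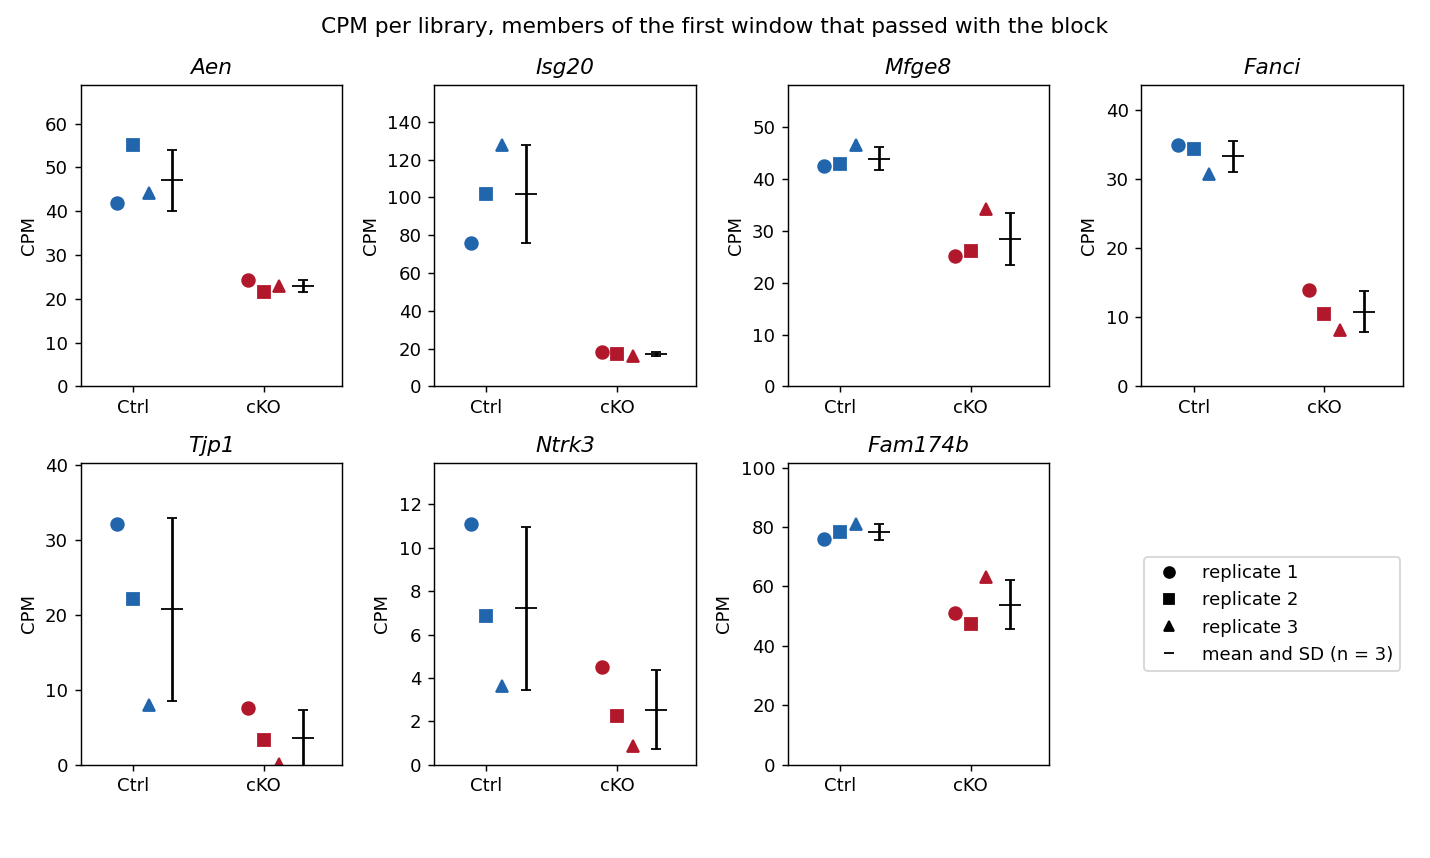
CPM of each library (y axis, from 0) for the 7 members of the first window that passed with the replicate block, in Ctrl (blue) and cKO (red). Symbols give the replicate number, and bars the mean and SD over 3 libraries; Ntrk3 is the only one of the 7 whose groups overlap, and Tjp1 and Ntrk3 are lowest in the replicate 3 library of each group.

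Farther from that stretch, Tjp1 (ENSMUSG00000030516, 65296165 to 65371239, minus strand) encodes ZO-1, a scaffold that ties tight junctions to actin. Its Ctrl levels were 32.2, 22.1 and 7.95 CPM and its cKO levels 7.53, 3.26 and 0.0441 CPM, the last of these being 3 reads. The lowest Ctrl library and the highest cKO library nearly met, and within each group the replicate 3 library was the lowest. Its log2 difference came to −2.50 (SE 0.833), with an adjusted p of 0.586 in limma without the block and 0.000619 with it. Replicates 1 and 2 alone gave −2.20 (adjusted p = 0.0212 in limma). The edgeR fit with the block did not call Tjp1 (adjusted p = 0.382), and the difference was −1.66 without cKO replicate 3 and −1.55 with a pseudocount of 5.

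Ntrk3 (ENSMUSG00000059146, 78192362 to 78578408, minus strand), the receptor for neurotrophin-3, showed the same order of libraries. It stood at 11.1, 6.86 and 3.65 CPM in Ctrl and at 4.51, 2.24 and 0.881 CPM in cKO. The groups overlapped, and the cKO library was the lower one in each same-numbered pair. The adjusted p was 0.859 in limma without the block and 0.00487 with it, for a log2 difference of −1.24, and replicates 1 and 2 alone gave an adjusted p of 0.196. A pseudocount of 5 gave a difference of −0.676.

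Fam174b (ENSMUSG00000078670, 73740307 to 73776919), a gene for a small membrane protein, stood at 75.9, 78.2 and 81.2 CPM in Ctrl and at 51.0, 47.5 and 63.1 CPM in cKO. There was no overlap between the groups. The log2 difference was −0.54 (SE 0.122), with an adjusted p of 0.22 in limma without the block and 0.028 with it, and TMM scaling with the block ended the call (adjusted p = 0.0511 in limma). Its exons overlap those of A830073O21Rik on the opposite strand over 527 bp, but that gene reached means of only 1.80 ± 0.508 CPM in Ctrl and 1.24 ± 0.824 in cKO.

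The other 41 members of the first window did not pass with the block, and 33 of them differed by less than 0.25 on the log2 scale. Klhl25, a substrate adaptor of a ubiquitin ligase, stood at 160, 165 and 172 CPM in Ctrl and at 131, 130 and 140 CPM in cKO. Its groups did not overlap, but the adjusted p was 0.318 in limma and 0.103 with the block. The nuclease gene Fan1 and the mitochondrial ribosome gene Mrps11 were the other 2 members with lower cKO libraries throughout and no call. Fan1 stood at 9.09 ± 0.938 CPM in Ctrl and 6.34 ± 2.19 in cKO. Mrps11 stood at 26.9 ± 1.78 and 22.8 ± 2.54 CPM.

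Several abundant genes of the window did not pass. Akap13, an anchoring protein gene with the highest CPM of the window, stood at 531 ± 59.7 CPM in Ctrl and 463 ± 68.0 in cKO. Lrrk1, a kinase of the LRRK family, stood at 312 ± 81.6 and 254 ± 67.1 CPM. The zinc finger factor Klf13 stood at 135 ± 29.6 and 124 ± 17.4 CPM. Mef2a, another transcription factor, stood at 112 ± 8.29 and 114 ± 13.9 CPM. Vimp, which encodes a selenoprotein of the endoplasmic reticulum, was among the few genes with a higher cKO mean, at 94.4 ± 9.42 and 110 ± 17.3 CPM, and it did not pass.

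In the second window, Athl1 fell, and it was the only member to pass without the block. With the block, Pkp3 also fell and Cd163l1, Igf2, Tspan32 and Cd81 rose. That made 6 members called, 4 higher and 2 lower. The single member called without the block is 1.64% of this window, and the 6 called with it are 9.84%, beside the shares of all tested genes given above. The groups did not overlap for 13 members, 3 higher and 10 lower in cKO, beside 3.89% and 7.1% of all tested genes. At an unadjusted p under 0.05 there were 7 members of 61, beside 6.02% of all tested genes.

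Athl1 (ENSMUSG00000062031, 140941391 to 140947664), now named Pgghg, encodes an enzyme that removes glucose from the sugar units of collagen. It stood at 67.1, 69.2 and 71.4 CPM in Ctrl and at 34.3, 41.8 and 34.6 CPM in cKO. There was no overlap between the groups, and cKO kept 53.3% of the Ctrl mean. On the log2 scale it differed by −0.90 (SE 0.108, adjusted p = 0.0237 in limma, 0.00251 with the block). Of the 6 fits without 1 library, the one without cKO replicate 3 kept the call (adjusted p = 0.0492 in limma), and the other 5 gave 0.0545 to 0.153. Neither edgeR without the block (adjusted p = 0.0716) nor TMM scaling (0.0778) called it.

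Pkp3 (ENSMUSG00000054065, 141078218 to 141090510), which encodes the desmosome protein plakophilin 3, stood at 219, 210 and 276 CPM in Ctrl and at 160, 165 and 191 CPM in cKO. The groups did not overlap. The log2 difference was −0.44 (SE 0.132), with an adjusted p of 0.474 in limma without the block and 0.0223 with it.

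Athl1 and Pkp3 are neighbours only after the naming rule is applied: 131 kb and 8 annotated protein-coding genes lie between them, among them 5 of the Ifitm family and B4galnt4. Of the genes left out there, Ifitm2 and Ifitm3 fell without the block (log2 differences −3.15 and −1.78, adjusted p = 0.0204 and 0.0133 in limma), and Ifitm1 fell with it (−1.84, adjusted p = 0.414 without and 0.00204 with the block). B4galnt4, a glycosyltransferase gene, stood at 49.0, 71.5 and 73.4 CPM in Ctrl and at 0.451, 0.809 and 3.53 CPM in cKO. From Nlrp6 to Pkp3, all 7 consecutive genes of the table had each cKO library below each Ctrl library, over 170 kb, and the 6 that were tested all passed with the block. The seventh, Nlrp6, an innate immune sensor, had a mean of 0.888 CPM and was not tested. Over all tested genes, 7.1% had each cKO library below each Ctrl library and 2.87% passed with the block. The ends of the stretch were set by these same values and it includes genes left out by name, so the counts are a description only. The nearest members on each side of this stretch did not pass: Psmd13, a proteasome subunit, stood at 131 ± 9.38 CPM in Ctrl and 133 ± 14.6 in cKO, and Sigirr, an inhibitor of IL-1 receptor signalling, at 156 ± 21.1 and 145 ± 11.8 CPM. Farther along, the left-out Irf7, the interferon regulatory factor, differed by 0.005 on the log2 scale.

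**Figure D3:**
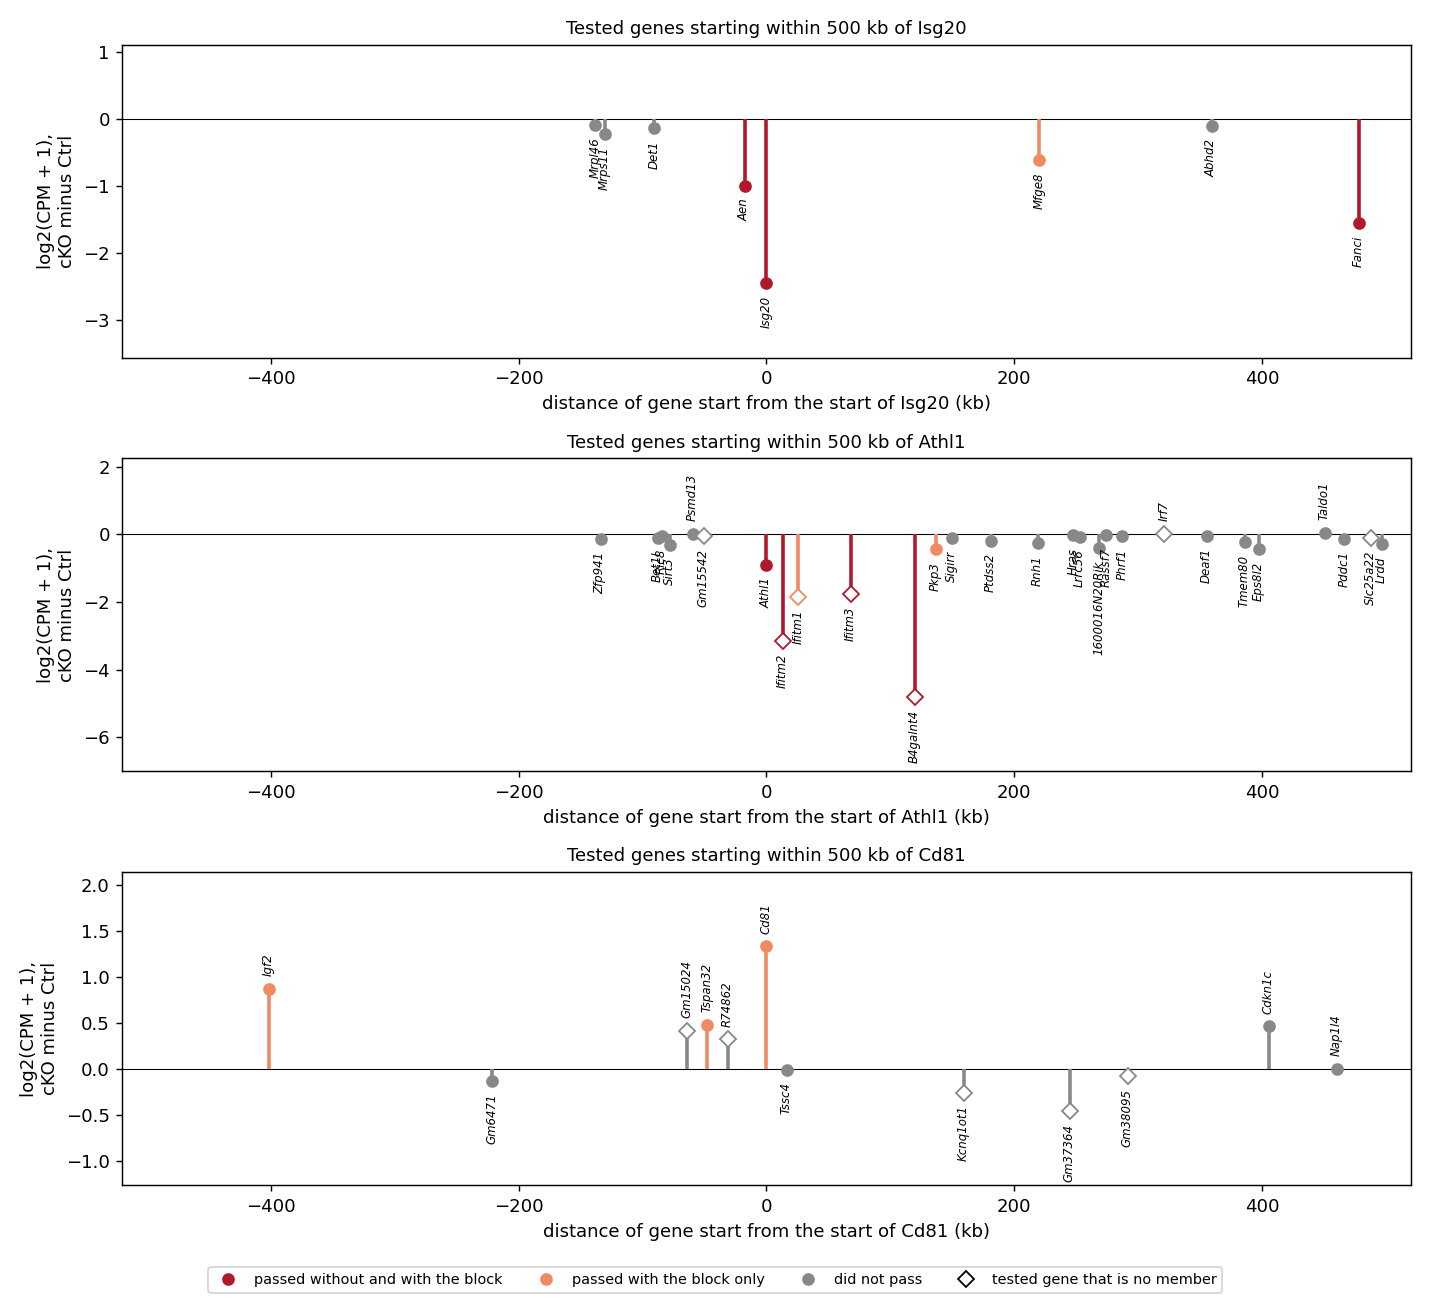
Difference between cKO and Ctrl on the log2(CPM + 1) scale (y axis) against the distance in kb of each tested gene's start from the start of Isg20, Athl1 or Cd81 (x axis). Filled circles are members, open diamonds tested genes that are no members, and colours show which passed without and with the replicate block; the falls next to Isg20 and Athl1 border on genes near 0.

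Cd163l1 (ENSMUSG00000025461, 140218267 to 140231145) encodes a scavenger receptor of the cysteine-rich type. Its Ctrl levels were 8.65, 13.8 and 20.9 CPM and its cKO levels 21.5, 26.6 and 30.1 CPM. There was no overlap between the groups, but the highest Ctrl library and the lowest cKO library nearly met. This gave a log2 difference of 0.88 (SE 0.303), with an adjusted p of 0.629 in limma without the block and 0.0272 with it, and the difference was 0.577 without Ctrl replicate 1. The next member, 5830411N06Rik, stood at 84.7 ± 4.39 CPM in Ctrl and 95.1 ± 10.9 in cKO and did not pass.

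Tspan32 and Cd81 both encode tetraspanins, membrane proteins that gather receptors and integrins into microdomains. They are neighbours on the plus strand in the imprinted region, with 33.1 kb between them and no annotated protein-coding gene there. Their promoters are shown, with the same marking, because both genes were higher in the cKO library of each same-numbered pair.
Tspan32, chr7:143004796-143005095: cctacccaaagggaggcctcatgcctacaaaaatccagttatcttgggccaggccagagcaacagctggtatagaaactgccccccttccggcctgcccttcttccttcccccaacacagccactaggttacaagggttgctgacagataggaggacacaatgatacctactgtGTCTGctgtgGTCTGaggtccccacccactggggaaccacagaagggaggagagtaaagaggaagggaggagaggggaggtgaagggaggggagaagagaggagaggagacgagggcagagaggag
Cd81, chr7:143052500-143052799: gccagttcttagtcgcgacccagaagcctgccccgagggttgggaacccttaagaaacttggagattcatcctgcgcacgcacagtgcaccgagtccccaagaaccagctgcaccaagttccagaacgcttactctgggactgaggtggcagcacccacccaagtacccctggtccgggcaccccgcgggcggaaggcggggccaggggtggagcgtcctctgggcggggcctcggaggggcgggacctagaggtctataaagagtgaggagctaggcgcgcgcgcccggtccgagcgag
The Tspan32 promoter held 2 CG pairs and 2 boxes, starting at positions 175 and 185, and the Cd81 promoter held 23 CG pairs and none. As with Aen and Isg20, members of the pair differed in CG pairs and in the box.

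Tspan32 (ENSMUSG00000000244, 143005046 to 143019644) stood at 121, 167 and 233 CPM in Ctrl and at 175, 251 and 296 CPM in cKO. The groups overlapped, and in both the replicate 1 library was lowest and the replicate 3 library highest. The log2 difference was 0.48 (SE 0.279), with an adjusted p of 1 in limma without the block and 0.017 with it. Replicates 1 and 2 alone gave an adjusted p of 0.565 in limma. The difference was 0.251 without Ctrl replicate 1 and 0.318 without cKO replicate 3.

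Cd81 (ENSMUSG00000037706, 143052739 to 143067934) stood at 3.39, 7.51 and 24.7 CPM in Ctrl and at 6.00, 31.0 and 67.6 CPM in cKO. The groups overlapped widely, and the order of the replicates was that of Tspan32. The 3 same-numbered pairs differed by 0.673, 1.91 and 1.41 on the log2 scale. The mean log2 difference was 1.33 (SE 0.948), with an adjusted p of 1 in limma without the block and 0.0162 with it, and replicates 1 and 2 alone gave 0.865. This difference rested on single libraries: it was 0.748 and 2.02 when Ctrl replicates 1 and 3 were left out in turn, and 2.25 and 0.6 when cKO replicates 1 and 3 were. Tssc4, the next member with its start site 16510 bp away, stood at 37.8 ± 10.6 CPM in Ctrl and 37.2 ± 8.33 in cKO.

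Igf2 (ENSMUSG00000048583, 142650766 to 142666816, minus strand), an imprinted fetal growth factor, was close to the 1 CPM limit of the rule, with 53 to 189 reads per library. It stood at 1.87, 1.72 and 1.6 CPM in Ctrl and at 5.17, 4.35 and 2.78 CPM in cKO. The groups did not overlap. Its log2 difference came to 0.87 (SE 0.387), with an adjusted p of 0.883 in limma without the block and 0.0437 with it. The edgeR fit with the block did not call it (adjusted p = 0.0636), and a pseudocount of 5 gave a difference of 0.426. Its exons overlap those of the gene model Gm49394 on the same strand and of Igf2os on the opposite strand, over 3694 bp in all. The imprinted cell cycle inhibitor Cdkn1c showed the same order, with 1.52, 1.30 and 1.23 CPM in Ctrl and 1.77, 2.14 and 2.88 CPM in cKO. Its groups did not overlap, but it did not pass (adjusted p = 1 in limma, 0.348 with the block).

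**Figure D4:**
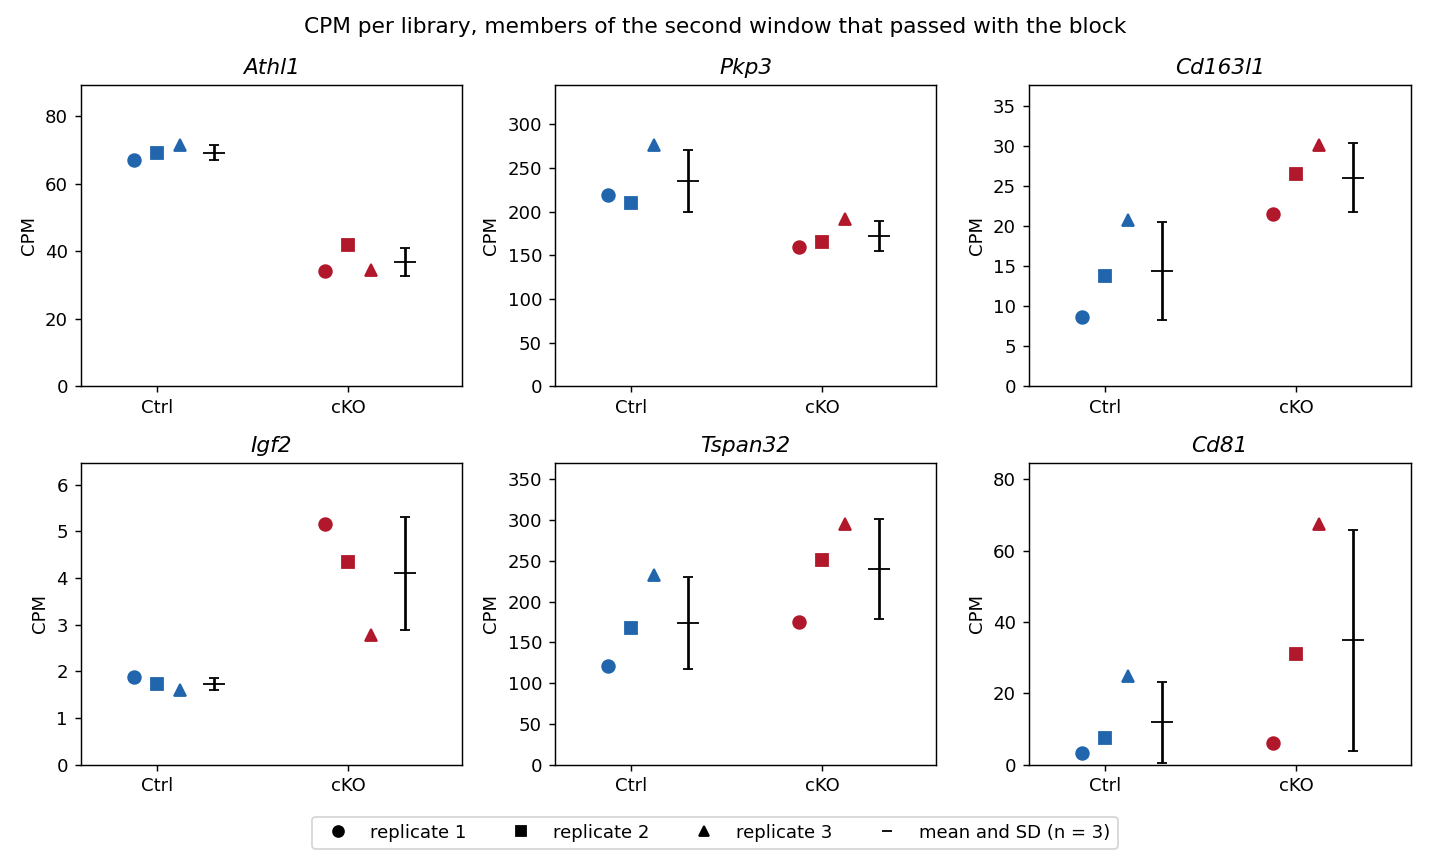
CPM of each library (y axis, from 0) for the 6 members of the second window that passed with the replicate block, in Ctrl (blue) and cKO (red). Symbols give the replicate number, and bars the mean and SD over 3 libraries; the groups overlap for Tspan32 and Cd81, whose replicate 3 libraries are the highest of each group, and do not overlap for the other 4 genes.

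The other 55 members of the second window did not pass with the block, and 39 of them differed by less than 0.25 on the log2 scale. Apart from Athl1 and Pkp3, the groups of 8 members did not overlap with cKO lower, as in 7.1% of all tested genes. Osbpl5, an imprinted lipid transfer protein gene, stood at 183, 166 and 154 CPM in Ctrl and at 133, 140 and 116 CPM in cKO (adjusted p = 0.461 in limma, 0.0649 with the block). Nadsyn1, which makes NAD, stood at 29.4, 27.6 and 26.7 CPM in Ctrl and at 20.5, 22.5 and 19.2 CPM in cKO (0.397 and 0.178). Neither reached the threshold.

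The remaining 6 of these were Zfp511, Paox, Mtg1, Sirt3, Cd151 and Tspan4. Paox, a polyamine oxidase gene, and Mtg1, a GTPase gene of the mitochondrial ribosome, are next-door members whose starts lie 11907 bp apart. Paox stood at 11.3 ± 2.44 CPM in Ctrl and 6.87 ± 1.73 in cKO, and Mtg1 at 32.7 ± 4.27 and 26.6 ± 1.63 CPM. Sirt3, the mitochondrial deacetylase, stood at 17.6 ± 1.44 and 14.0 ± 0.875 CPM. The tetraspanins Cd151 and Tspan4 had means of 8.74 ± 0.33 and 17.1 ± 3.81 CPM in Ctrl and of 6.58 ± 0.402 and 11.8 ± 0.178 CPM in cKO, so their order was opposite to that of Tspan32 and Cd81.

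The most abundant members of this window did not pass. Ctsd, the lysosomal protease cathepsin D, stood at 2254 ± 94.4 CPM in Ctrl and 1998 ± 322 in cKO. The leukocyte actin-binding gene Lsp1 stood at 945 ± 71.6 and 1009 ± 146 CPM. Nap1l4, a histone chaperone gene in the imprinted region, stood at 298 ± 8.21 and 299 ± 9.38 CPM. Farther into that region, the TNF receptor family gene Tnfrsf26 stood at 27.5 ± 2.31 and 27.5 ± 2.06 CPM.

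Members were taken as neighbours when they followed each other by start position in the same window. In the first window, 29 of 47 neighbouring pairs (61.7%) shared the sign of the difference, and in the second 40 of 60 (66.7%), while 54.4% of 13265 such pairs over all chromosomes did. Among pairs with start sites within 100 kb, the shares were 75% of 16, 70.8% of 48 and 55.5% of 8096. How often signs are shared also depends on how many genes are lower at all. That was 79.2% of the first window, 75.4% of the second and 59% of all tested genes. The shares were not adjusted for this, so they do not show by themselves that neighbours change together. Both genes passed in the same direction without the block in 1 pair of the first window (Aen and Isg20), in none of the second, and in 6 of all pairs (0.0452%). With the block this held for 2 pairs of the first window (4.26%), 2 of the second (3.33%) and 39 of all pairs (0.294%). The pairs were Aen with Isg20, Isg20 with Mfge8, Athl1 with Pkp3, and Tspan32 with Cd81. Of these, Aen with Isg20 (start sites 17570 bp apart) and Tspan32 with Cd81 (47693 bp) lay within 100 kb.

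More members had a log2 difference below 0 than above it: 38 of 48 (79.2%) in the first window and 46 of 61 (75.4%) in the second, beside 59% of all tested genes. These counts go by the means of log2(CPM + 1). Some members counted as lower, such as Hras (32.1 CPM in Ctrl and 32.6 in cKO), had a slightly higher mean CPM in cKO. The median log2 differences were −0.107, −0.095 and −0.038. With TMM scaling the shares with a log2 difference below 0 were 66.7%, 57.4% and 47.5%, and the medians −0.059, −0.031 and 0.011. Single libraries moved these medians too. That of the first window was −0.239 when Ctrl replicate 3 was left out, and −0.182, −0.193 and −0.07 when cKO replicates 1, 2 and 3 were left out in turn. That of the second was −0.051 when Ctrl replicate 3 was left out. The median of all tested genes was 0.03, 0.016 and −0.144 without Ctrl replicates 1, 2 and 3 in turn, and −0.152, −0.097 and 0.076 without cKO replicates 1, 2 and 3, with 39.6% to 69.9% of genes lower. A member was lower in all 3 same-numbered pairs in 41.7% of the first window, 31.1% of the second and 18.5% of all tested genes. It was higher in all 3 pairs in 4.17%, 9.84% and 11.5%. A gene at 0 in both replicate 3 libraries can count in neither direction. This held for 4 members of the first window and 2 of the second. Over the whole table, 4406 genes were at 0 in the Ctrl and 4590 in the cKO replicate 3 library, so the shares of all tested genes are not fully comparable. The 907 tested protein-coding genes of chromosome 7 outside the windows held 4 called without the block (0.441%) and 22 with it (2.43%), with a median of −0.043. In a stretch of chromosome 15 as long as the first window, 60 to 80 Mb, which was also picked with earlier results of this comparison known, 5 of 139 were called without the block (3.6%) and 17 with it (12.2%).

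By role, the lists describe the members only, and no list was tested. Over all tested genes, 0.663% were called without the block and 2.87% with it. The lists share genes: Aen is on both the DNA repair and the innate immune list. Of 7 tested genes for DNA repair and replication, Aen and Fanci fell, and all 7 had lower cKO means with a median of −0.326, beside −0.038 over all tested genes. Of 10 for innate immune and death-domain signalling, Isg20 and Aen fell, and Sigirr, Tollip, Fadd and Deaf1 were among those that did not pass. Of 10 for actin, cortex and trafficking, Tjp1 and Pkp3 fell with the block only. None of 8 genes on the mitochondrial list passed in limma, and 7 of them had lower means. Mtmr10, on the list with a higher mean (log2 difference 0.239), is a myotubularin-related gene and not an established mitochondrial one. Mtg1, with a lower mean (−0.284), was left off the list. Of 10 for lipid and carbohydrate metabolism, Athl1 fell. Of 6 for growth factor, Ras and kinase signalling, Ntrk3 fell with the block. None of 6 transcription factor and chromatin genes passed without or with the block.

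Of the 12 tested genes in or next to the imprinted region of the second window, none passed without the block, and Tspan32, Cd81 and Igf2 rose with it. Over all tested genes, 1.24% rose with the block. The 12 had 8 log2 differences above 0 and 4 below it, and a median of 0.034. For the pathway itself, 13 of 15 genes for TGF-beta and SMAD components or responses, the targeted Tgfbr2 among them, were tested across the genome. Of these, 5 fell without the block and 8 with it, with the targeted Tgfbr2 in both counts, none rose, and the median was −0.76. Over all tested genes, 0.459% fell without the block and 1.64% with it, and the median was −0.038. No member of either window is on that list.

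Levels of different genes were compared as CPM per kb of exon, which allows for gene length. In the first window, Isg20 was second of 48 in Ctrl at 54.7 CPM per kb, after Vimp at 63.9, and was at rank 14 in cKO at 9.27. Aen went from 8.12 to 3.94 CPM per kb (rank 17 to 23), and Tjp1 from 2.66 to 0.462 (rank 26 to 37). Ntrk3 had the lowest level of the window in cKO, at 0.0843 CPM per kb. In the second window, Ctsd led in both groups, at 959 CPM per kb in Ctrl and 850 in cKO, followed by Lsp1. Pkp3 went from rank 5 at 65 CPM per kb to rank 8 at 47.6, and Cd81 from rank 42 of 61 at 4.13 to rank 22 at 12.1.

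**Figure D5:**
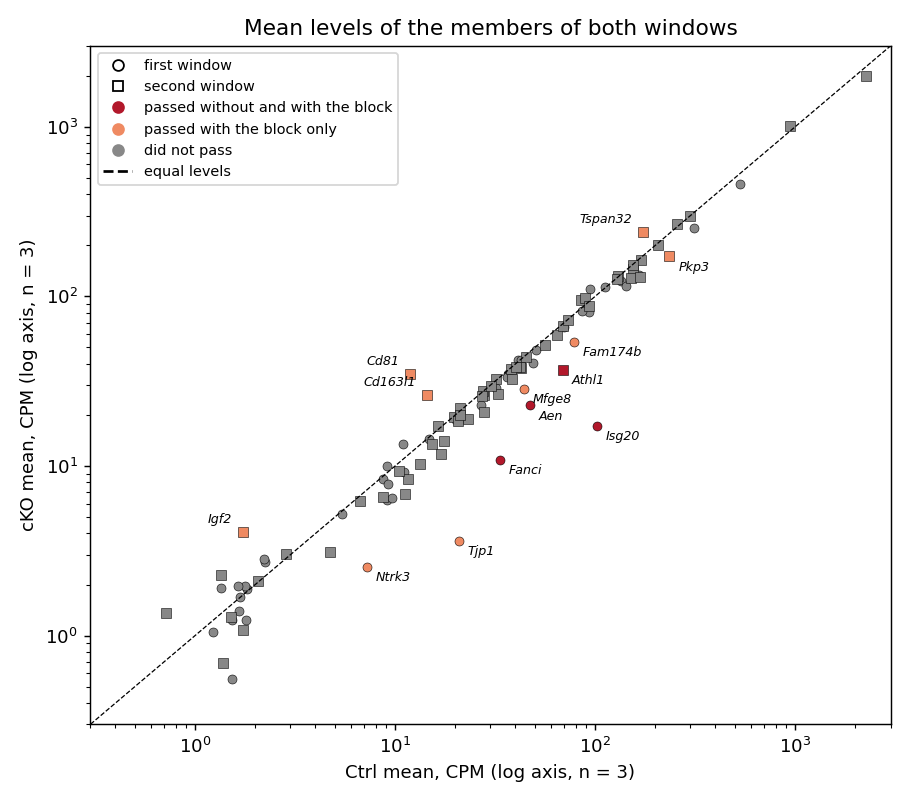
Mean CPM in cKO (y axis, log scale) against mean CPM in Ctrl (x axis, log scale) for the 109 members, 3 libraries per group, circles for the first window and squares for the second. The dashed line marks equal levels, and the 13 members that passed with the replicate block are named; Isg20, Fanci and Tjp1 lie farthest below the line, and Cd81 and Igf2 farthest above it among the named genes.

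RefSeq promoters were found for 92 of the 109 members. The box CAGAC, on either strand, stood in 40% of 50 promoters of the first window and 59.5% of 74 of the second, beside 49.6% of all promoters. GGCGC, another SMAD-binding sequence, stood in 60% and 58.1%, beside 36.9%. CCGGAAG, an ETS site, stood in 24.0% and 25.7%, beside 8.86%. TGTGGT, a RUNX site, stood in 12% and 25.7%, beside 16.8%, and GGTGTGA, a T-box site, in 8.0% and 5.41%, beside 3.98%. CACCC, a Kruppel-like factor site, stood in 70.0% and 64.9%, beside 57.5%. The median number of CG pairs was 17.5 in the first window and 19 in the second, beside 7 over all promoters, so the windows' promoters were also richer in CG pairs. GGCGC itself contains a CG pair, as does CCGGAAG.

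The values on each side of the limits of the rule were as follows. Just above 1 CPM lay Kif7 (1.04 CPM) and Nr2f2 (1.14 CPM) in the first window, and Muc5b and Tnfrsf23 (both 1.03 CPM) in the second. Just below it lay Gm5334 (0.957 CPM), Fam189a1 (0.932 CPM), Shank2 (0.951 CPM) and Muc6 (0.95 CPM). Next to the 60 Mb limit, Snrpn outside and Chrna7 and Klf13 inside differed by −0.05, −0.14 and −0.11 on the log2 scale. Next to the 80 Mb limit, Ap3s2 inside differed by −0.02 and Zfp710 and Idh2 outside by −0.15 and −0.37. Next to the 140 Mb limit, Zfp511 and Fuom inside differed by −0.16 and −0.5, and Adam8 outside, a membrane protease gene, by 1.31, with means of 4.52 ± 2.4 CPM in Ctrl and 14 ± 8.71 in cKO. In all, 56 protein-coding genes were listed in the first window, of which 2 were left out by name and 6 were below 1 CPM, and 78 in the second, of which 8 were left out by name and 9 were below 1 CPM.

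In the authors' deposited table, 144 of 17985 genes (0.801%) have an adjusted p under 0.05. Among the members these are Isg20, Aen, Fanci and Athl1, all marked lower. Their log2 fold changes in the authors' deposited table are −2.51, −0.975, −1.57 and −0.844, and these are the same 4 members that passed above without the block.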

How the data were processed

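Bulk RNA-seq of 6 libraries was analysed, 3 Ctrl and 3 cKO. The authors trimmed reads with Trimmomatic 0.33, aligned them to mm10 with STAR 2.5.2, counted them with HTSeq 0.6.1 and used edgeR, per the submitters' processing notes, which give no settings or strand use. The deposited table holds CPM per library, with the columns WT and KO taken as Ctrl and cKO. It also holds the authors' log2 fold changes, their p-values and adjusted p-values, and a likelihood-ratio score per gene, per the file headers. In each library 100% of the CPM values came out as whole reads (within 0.01 reads), so counts were recovered for an alternative count test.

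The fit covered the 15691 genes whose mean reached 1 CPM, on log2(CPM + 1), pseudocount 1, with limma 3.58.1 in R 4.3.3 (trend and robust empirical Bayes, group only), with Benjamini-Hochberg adjustment over all of them and a threshold of 0.05. A fold change on this scale understates that of low genes. The replicate block was added because the replicate numbers in the labels pair the libraries in the data: the correlations of deviations were 0.855, 0.687 and 0.924, and 0.384 with replicates 1 and 2 alone. Alternatives were the block, edgeR 4.0.16 quasi-likelihood on the recovered counts without and with the block, TMM scaling, other pseudocounts and minimums, and fits without 1 library. The fit was checked on simulated data.

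Named genes are Tgfbr2, members past the threshold without or with the block, those with the largest differences at 5 CPM or more, the most abundant ones, and members of the imprinted, role and neighbour lists. The members, the gene lists and this rule were chosen with earlier results of these data known. Genes left out by the naming rule are described only between Athl1 and Pkp3 and at Irf7. Gene positions are those of the deposited table, overlaps come from GENCODE M21, and promoters from RefSeq (GRCm38.p6).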

Additional observations from a re-analysis of the deposited data

How the results depend on the processing

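With 3 libraries a group, counts of calls depended on the replicate block, on the test and on single libraries. Members under 5 CPM (13 in the first window, 9 in the second) rest on the fewest reads, and a minimum of 5 CPM left the calls at 3 and 1. Without the block limma called 3 members of the first window, 1 of the second and 104 genes in all. The replicate block, which rests on the pairing of replicate numbers, gave 7, 6 and 451. The edgeR quasi-likelihood test gave 1, 0 and 41 without the block (6, 4 and 853 at an unadjusted p under 0.05) and 6, 5 and 469 with it. TMM scaling called 0 members of the second window in limma (5 at an unadjusted p under 0.05), and TMM scaling with the replicate block gave 6, 6 and 514. Replicates 1 and 2 alone gave 6, 2 and 291. Neighbouring pairs called in the same direction went from 1 to 2 in the first window and from 0 to 2 in the second with the replicate block.

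Leaving out 1 library gave 0 to 4 members in the first window, 0 to 1 in the second and 14 to 85 genes in all. The first window held 0 members without Ctrl replicate 2 (6 at an unadjusted p under 0.05 in limma) and 1 when Ctrl replicate 1, Ctrl replicate 3 or cKO replicate 2 was left out. The second held 0 without any of Ctrl replicates 1, 2 and 3 and cKO replicates 1 and 2 (4 to 7 at an unadjusted p under 0.05 in limma). Of all genes, 14 were called without Ctrl replicate 2, 25 when Ctrl replicate 3 was left out, and 22 when either Ctrl replicate 1 or cKO replicate 2 was. Where libraries were left out, there were fewer samples; otherwise the cause was not tested.

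The named genes that changed sign all lay near 0 and never passed. Lins, at −0.018 on the log2 scale, was at 0.0115 in edgeR without and 0.0253 with the block, 0.0432 under TMM scaling without and with the block, and 0.0335 with replicates 1 and 2 alone. Those replicates alone also gave −0.008 for Taldo1, −0.0026 for Nap1l4 and −0.0959 for Tm2d3. Without 1 library, log2 differences ranged from −0.0261 to 0.17 for Lsp1, −0.074 to 0.123 for Taldo1, −0.0605 to 0.114 for Mef2a, −0.129 to 0.254 for Arrdc4, −0.159 to 0.135 for Lins, −0.0231 to 0.0229 for Nap1l4 and −0.129 to 0.109 for Tm2d3.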
